A study of Mus musculus with 12 samples.

Results

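The genes followed through the Meis1 and Hoxb13 peak lists of the young mouse ventricle were the sarcomeric actins Actc1 and Acta1, and the Z-disc and associated genes Actn2, Nexn, Xirp1, Ldb3, Myoz2, Tcap, Csrp3 and Ankrd1. A peak is a stretch of genome that the authors called as rich in reads after precipitation of a factor. The deposited annotation assigned each peak to 1 gene, with its distance from a start site of that gene. Peaks were taken for a gene when the deposited annotation carried its symbol, whatever their strength or class. These 10 of 21883 protein-coding genes held 37 of the 30534 Meis1 peaks and 67 of the 22284 Hoxb13 peaks. Meis1, a TALE homeodomain protein, often works as a cofactor of Hox proteins, and Hoxb13 belongs to the posterior Hox group.

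The samples were heart ventricles from the outbred CD-1 strain, taken at postnatal day 15, and the labels name no genetic change or treatment. The libraries form 4 groups of 3, namely chromatin precipitated with an antibody to Meis1, chromatin precipitated with an antibody to Hoxb13, and an input for each, with 3 hearts as the biological replicates by the protocol. By the protocol, the chromatin of these hearts was split between the antibodies. The titles number the Meis1 libraries 1 to 3 and the Hoxb13 libraries 4 to 6, so they do not show which libraries share a heart. The deposited values were 1 pooled peak list per factor, so values below carry no SD over hearts, no test was made, and read depth was unknown. Whole ventricle mixes cardiomyocytes with other cells, and the lists describe where the factors sat, not how much RNA a gene made.

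In striated muscle, thin filaments of actin are anchored at the Z-disc, where alpha-actinin ties together filaments from neighbouring sarcomeres. LIM and PDZ proteins, calsarcins and telethonin attach to alpha-actinin or to titin and link the Z-disc to stretch and calcineurin signalling. The heart uses cardiac actin (Actc1), with skeletal actin (Acta1) alongside it mostly before and around birth. Several Z-disc genes, Ankrd1 and Csrp3 among them, are known to respond to mechanical load.

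Promoters with a peak on them, and those of both actins, are shown first. RefSeq promoters (GRCm38.p6, the same build as mm10) were found for 7 of the 10 genes, in 9 windows; Nexn, Tcap and Xirp1 had none. Each line gives the 250 bases before a start site, 5′ to 3′ on the minus strand, ending at the base next to the start. For Csrp3 (chr7:48848052-48848301), Ldb3 (chr14:34588682-34588931) and Ankrd1 (chr19:36119845-36120094) the capitals mark bases inside a peak. For Acta1 (chr8:123894776-123895025) and Actc1 (chr2:114052876-114053125), which no peak touched, the capitals mark the CArG box, the sequence element recognised by serum response factor.
Csrp3: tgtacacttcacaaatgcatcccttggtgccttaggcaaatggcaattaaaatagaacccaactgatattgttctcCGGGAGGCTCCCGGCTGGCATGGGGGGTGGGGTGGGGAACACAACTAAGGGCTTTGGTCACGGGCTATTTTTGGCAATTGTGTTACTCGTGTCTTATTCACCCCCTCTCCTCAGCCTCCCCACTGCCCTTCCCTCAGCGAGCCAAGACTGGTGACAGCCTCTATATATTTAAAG
Ldb3: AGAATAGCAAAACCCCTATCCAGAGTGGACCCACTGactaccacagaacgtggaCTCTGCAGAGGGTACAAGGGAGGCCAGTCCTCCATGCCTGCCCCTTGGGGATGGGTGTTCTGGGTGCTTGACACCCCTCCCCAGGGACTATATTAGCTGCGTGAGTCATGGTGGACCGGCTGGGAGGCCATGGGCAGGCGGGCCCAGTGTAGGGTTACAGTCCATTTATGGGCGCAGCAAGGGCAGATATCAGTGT
Ankrd1: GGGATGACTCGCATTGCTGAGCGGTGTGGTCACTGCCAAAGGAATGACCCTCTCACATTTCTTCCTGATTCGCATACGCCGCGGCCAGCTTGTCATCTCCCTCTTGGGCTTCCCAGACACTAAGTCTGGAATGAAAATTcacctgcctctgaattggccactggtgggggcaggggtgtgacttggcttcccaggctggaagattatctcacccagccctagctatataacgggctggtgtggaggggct
Acta1: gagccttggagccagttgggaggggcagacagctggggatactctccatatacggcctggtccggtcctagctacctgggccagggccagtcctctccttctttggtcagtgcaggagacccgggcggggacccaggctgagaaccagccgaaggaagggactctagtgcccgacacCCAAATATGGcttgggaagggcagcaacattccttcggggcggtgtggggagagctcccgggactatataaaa
Actc1: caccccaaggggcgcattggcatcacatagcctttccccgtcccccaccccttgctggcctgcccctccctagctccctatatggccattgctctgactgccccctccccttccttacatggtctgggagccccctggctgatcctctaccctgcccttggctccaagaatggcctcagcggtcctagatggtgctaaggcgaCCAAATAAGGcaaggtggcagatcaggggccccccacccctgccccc

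In the Csrp3 window a Meis1 peak covered the 174 bases nearest the start. In the Ldb3 window a Meis1 peak covered the 196 bases nearest the start and a Hoxb13 peak the farthest 36, with a short uncovered stretch between them. In the Ankrd1 window a Meis1 peak covered the farthest 139 bases and stopped 112 bp before the start. These Meis1 peaks ranked 26343 (Csrp3), 30261 (Ldb3) and 9739 (Ankrd1) of 30534, so those of Csrp3 and Ldb3 stood low in the list. The windows of Actn2 and Myoz2 held no peak, but a Hoxb13 peak began 79 bp and 70 bp downstream of their starts. A second Csrp3 window, at an inner start of that gene, held no peak either.

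Short motifs were searched in these windows on both strands, and a match is only a match of letters. TGACAG, the core Meis site, occurred in 1 of the 9 windows, that of Csrp3, 23 to 18 bp before the start and inside the Meis1 peak; it occurred in 15.9% of all 32851 promoter windows of the same length. The CArG box lay in 4 windows of 3 genes (1.47% of all windows). It read CCAAATATGG in Acta1 at 73 to 64 bp before the start, CCAAATAAGG in Actc1 at 47 to 38 bp, and CCATTTATGG in Ldb3 at 35 to 26 bp, where it was inside the Meis1 peak. The Ldb3 site was counted in both of that gene's overlapping windows. CATTCC, the Tead site, was found in Ankrd1, where 2 copies on the opposite strand lay inside the Meis1 peak, and in Acta1 (12.6% of all windows). The Gata site AGATAA occurred in Ankrd1, 47 to 42 bp before the start and outside the peak (9.99% of all windows). A Mef2 box, CTATATATAG, was found in Myoz2 at 33 to 24 bp (0.508% of all windows), and CCAAT in Actc1, Myoz2 and Ankrd1 (33.8%). The Hox-type motifs TGATTNAT, CCAATAAA and CTCGTAAA were in none of the 9 windows, against 2.82%, 1.02% and 0.110% of all windows. CCAATAAA contains CCAAT, so those searches overlap. A Hoxb13 peak reached into only 1 of the 9 windows, at Ldb3, and peak sequence outside the windows was not searched. The absence of Hox-type motifs therefore does not describe the Hoxb13 peaks.

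Of the 10 genes, 8 had a Meis1 peak, against 38.2% of all protein-coding genes, and 9 had a Hoxb13 peak, against 44.4%. Peaks of both were found at 8 (23.9% of all genes). Xirp1 had Hoxb13 peaks alone, as had 4489 of the 21883 protein-coding genes. Acta1 had no peak of either factor, as had 9035 of them. A Meis1 peak within 1 kb of a start site, called a promoter peak here, was present at 6 of the 10 (8.16% of all genes), and a Hoxb13 promoter peak at 8 (30.7%). Actn2, Nexn, Ldb3, Myoz2 and Csrp3, 5 genes in all, had promoter peaks of both, as had 1027 of the 21883 genes.

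The number of peaks per gene ran higher for Hoxb13. At least 5 Hoxb13 peaks were assigned to 7 of the 10 genes, compared with 3.26% of all genes, and 5 or more Meis1 peaks to 5 of the 10, compared with 5.67%. Hoxb13 peaks outnumbered Meis1 peaks at 8 genes, and Ankrd1 alone had more Meis1 peaks. The share of all genes with more Hoxb13 than Meis1 peaks was not counted. Some Hoxb13 peaks overlapped each other, and merging them left 62 regions, compared with 37 for Meis1. A locus was taken as the gene body with 0.5 of the gap to each neighbour. The median locus of the 10 genes was 41.5 kb, close to the 46.6 kb of all genes. Per 100 kb of summed locus length, the peaks assigned to the 10 came to 7.07 for Meis1 and 12.8 for Hoxb13. For all genes they came to 0.900 and 0.718. The summed loci were 524 kb for the 10 genes and 2.75e+06 kb for all 21883. Long loci weigh more in such sums than in medians, so the similar medians do not match the lists for locus size. The 10 genes held 37 Meis1 and 67 Hoxb13 peaks, and all genes 24739 and 19731. Assigned peaks were counted here wherever they lay, and some, such as those of Tcap in Stard3 and of Myoz2 in Synpo2, are outside the locus.

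**Figure D1:**
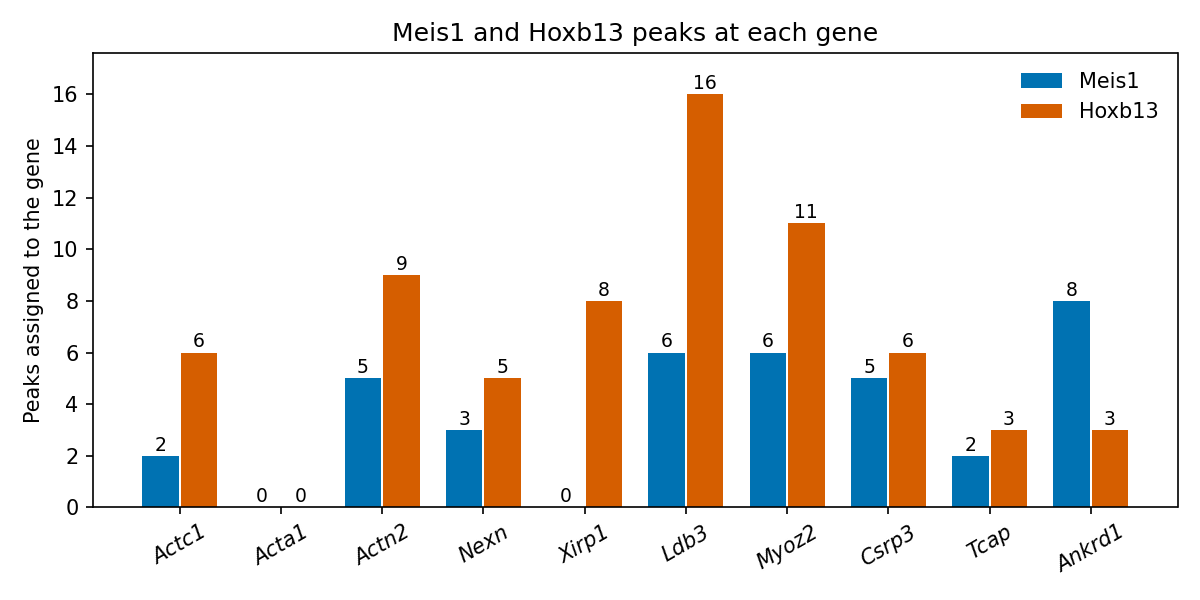
Number of Meis1 (blue) and Hoxb13 (orange) peaks assigned to each of the 10 genes; bars are counts in 1 pooled list per factor. Ldb3 has 16 Hoxb13 peaks, Ankrd1 is the one gene with more Meis1 than Hoxb13 peaks (8 and 3), Xirp1 has 8 Hoxb13 peaks and no Meis1 peak, and Acta1 has none.

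Peak strength is the signal value the authors deposited for each peak, and it was compared only within a list. The Meis1 peaks of the 10 genes ran from 15.6 to 189.8 with a median of 25.4, against a median of 18.7 over the whole Meis1 list. Of the 37, 12 (32.4%) were in the strongest 10% of that list, namely 5 at Ankrd1, 2 at Actn2, 2 at Csrp3 and 1 each at Ldb3, Myoz2 and Tcap. The Hoxb13 peaks ran from 17.9 to 145, with a median of 22.6 against 21.4 over the list. Of the 67, 6 (8.96%) were in the strongest 10% of the Hoxb13 list, 5 of them at Actc1 and 1 at Nexn. None of the 10 genes had a peak of both factors in the strongest 10%, and the share of all genes at that cutoff was not counted. These genes thus held many Hoxb13 peaks of ordinary strength and fewer Meis1 peaks, of which a larger share stood high in its list.

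**Figure D2:**
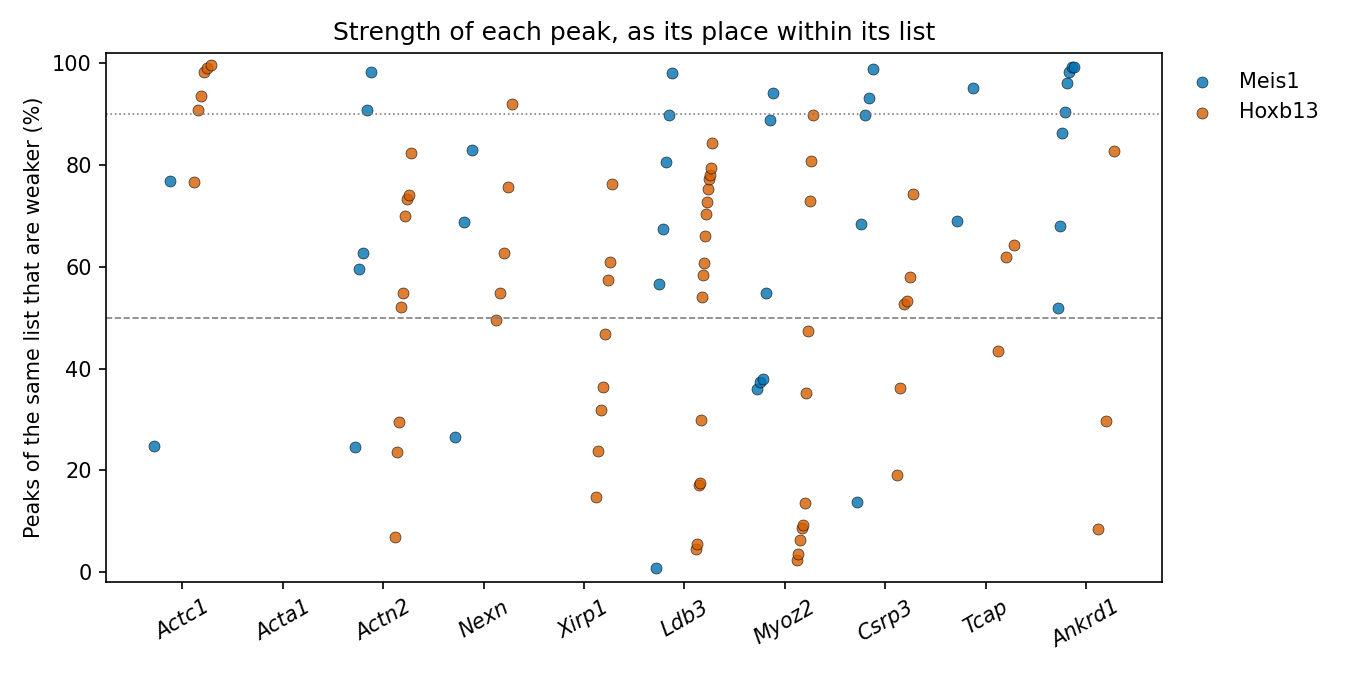
Each point is 1 peak, placed by the percentage of peaks in its own list that are weaker; the dashed line marks 50% and the dotted line 90%. Ankrd1 has 5 Meis1 peaks above the dotted line and Actc1 has 5 Hoxb13 peaks above it, while the Hoxb13 peaks of Ldb3 and Myoz2 spread over most of the range below it.

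Position relative to the gene was set beside that of each whole list. Of the Meis1 peaks, 16 of 37 (43.2%) were in introns, 7 (18.9%) in promoters and 8 (21.6%) intergenic, whereas over the whole Meis1 list 33.4%, 6.73% and 54.9% fell in these classes. Of the Hoxb13 peaks, 39 of 67 (58.2%) were in introns and 10 (14.9%) in promoters, against 23.4% and 40.3% of the Hoxb13 list. A single Hoxb13 peak was intergenic (1.49% against 25.3%), and 9 were in exons (13.4% against 4.69%). Of the 67 Hoxb13 peaks, 58 were downstream of the start site, 9 upstream and none on it; of the 22284 in the whole list, 10840 were downstream, 6996 upstream and 4448 on a start. Of the 37 Meis1 peaks, 17 were downstream, 18 upstream and 2 on the start, and of the 30534 in the whole list 15899, 13819 and 816. By coordinates, 49 of the 67 Hoxb13 peaks and 17 of the 37 Meis1 peaks had their summit inside the RefSeq model of their own gene. This was not counted for the whole lists.

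**Figure D3:**
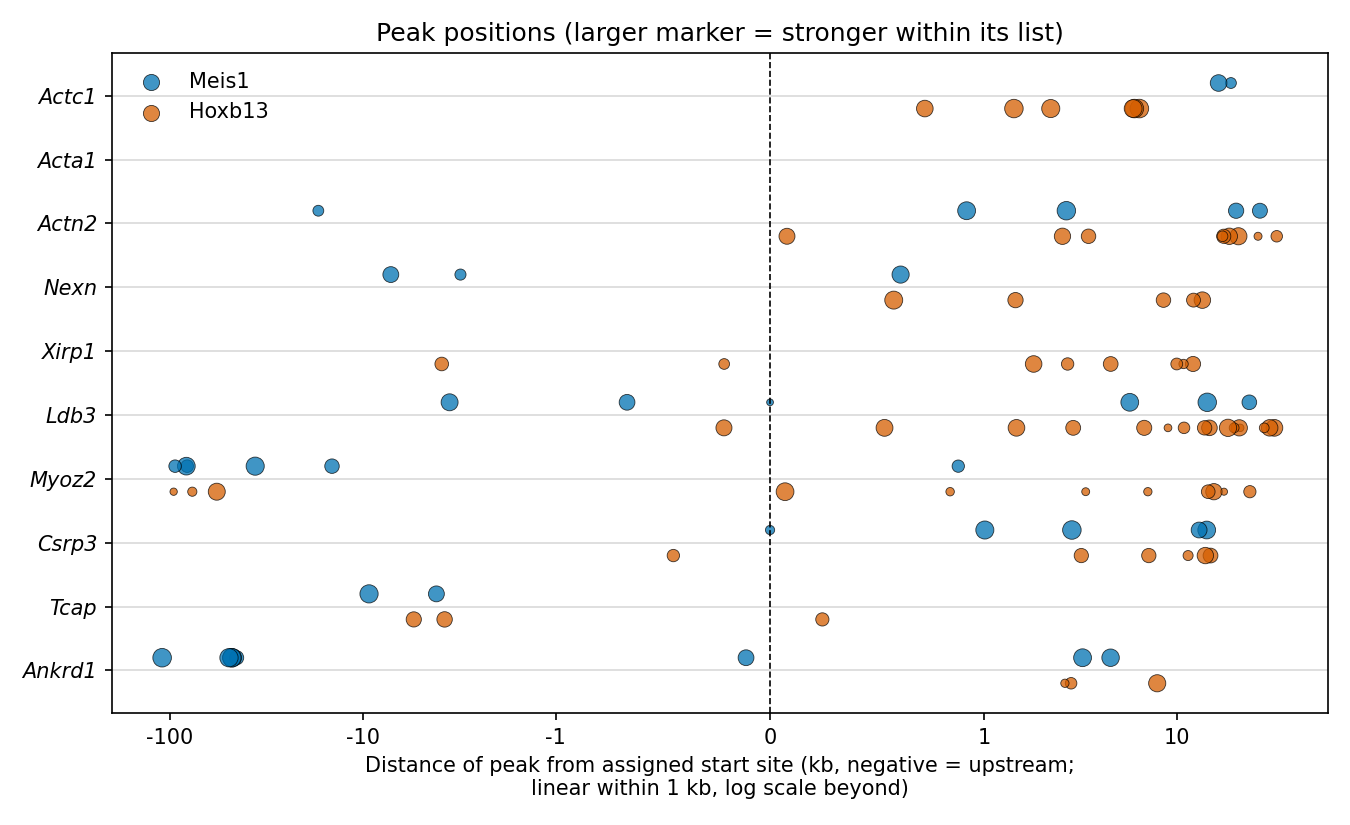
Position of each peak along the horizontal axis, in kb from the start site it was assigned to, linear within 1 kb and logarithmic beyond; negative is upstream and a larger marker is a stronger peak within its list. Hoxb13 peaks (orange) sit mainly downstream of the starts, and the peaks farthest upstream are Meis1 peaks (blue) of Ankrd1 and peaks of both factors at Myoz2.

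The actins differed in Hoxb13 peaks. Actc1 held the strongest of the 10 genes and Acta1 none, while for Meis1 Actc1 had 2 peaks, as few as any gene with one. Actc1, cardiac alpha-actin (chr2:114047282-114052875), had 6 Hoxb13 peaks and 2 Meis1 peaks. Its strongest Hoxb13 peak, 145 and rank 85 of the list, lay at chr2:114046172-114046520. It was joined by peaks of 89.7 (rank 215) and 37.2 (rank 2069), which overlapped in a chain, with summits 0.346 to 0.892 kb beyond the 3′ end of the gene model. Inside the gene were Hoxb13 peaks of 41.8 in exon 3 of 7, 67.1 (rank 376) at 1.42 kb downstream of the start, and 27.6 at 722 bp. Of these 6, 5 were in the strongest 10% of the Hoxb13 list, and none was on the 250 bases printed above. The Meis1 peaks assigned to Actc1, 25.4 and 16.7, were 16.4 and 19.0 kb downstream of the start, past the 3′ end. The deposited annotation placed the peaks past the 3′ end, and the one of 67.1, in intron 4 of 5 of C130080G10Rik, whose RefSeq model does not overlap Actc1.

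Acta1, skeletal alpha-actin (chr8:123891758-123894775), had no peak of either factor in a locus of 19.961 kb. The nearest Hoxb13 peak, 19.8 at the promoter of Ccsap, was 32.4 kb from the gene, and the nearest Meis1 peak, 62.4 in an intron of Abcb10, was 83.4 kb away. Both actin promoters carry a CArG box, and neither window had a peak. The Hoxb13 peaks assigned to Actc1 were in the gene body and past its 3′ end. Upstream, within 10 kb of Actc1, a Meis1 peak of 32.2 and Hoxb13 peaks of 25.1, 29.4 and 17.8 were assigned to C130080G10Rik. That Meis1 peak lay 1159 bp from the printed Actc1 window.

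Among the actin-binding proteins, Actn2, Nexn and Xirp1 each had a Hoxb13 promoter peak. Actn2, which encodes the cardiac and skeletal muscle alpha-actinin-2 (chr13:12269426-12340732), had 5 Meis1 and 9 Hoxb13 peaks, and intron 1 of 20 held 3 of the Meis1 and 7 of the Hoxb13 peaks. Only 159 genes (0.727%) had as many Hoxb13 peaks. The strongest Meis1 peak was 128 (rank 559), at chr13:12337901-12338073, 2.66 kb downstream of the start. It lay wholly within a Hoxb13 peak of 26.4 (rank 5934), and the summits were 24 bp apart. The promoter held Meis1 at 46.5, 917 bp downstream of the start, and Hoxb13 at 25.3, 79 bp downstream, with summits 782 bp apart. Farther into intron 1, between 17.1 and 26.8 kb from the start, Hoxb13 peaks of 18.1 to 30.2 were interspersed with Meis1 peaks of 20.5 and 20.0. A Hoxb13 peak of 22.1 lay 3.46 kb from the start and the last, 19.4, in intron 4. The remaining Meis1 peak, 16.7, was 17.0 kb upstream.

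Nexn, the actin-binding protein nexilin (chr3:152236982-152266350), had 3 Meis1 and 5 Hoxb13 peaks. Its Hoxb13 promoter peak of 38.7 (rank 1809), 577 bp past the start, was the one Hoxb13 peak in the strongest 10% outside Actc1. The Meis1 promoter peak of 30.6 belonged to another start site of the gene, and the promoter summits were 10.9 kb apart. The other Meis1 peaks were 16.8 in intron 1 and 22.0 at 7.15 kb upstream of the assigned start. The one of 22.0 was classed as 3′ UTR, 7.26 kb outside the Nexn model, and the neighbour Miga1 lies 7.11 kb from that model. The other Hoxb13 peaks ranged from 21.3 to 27.2, with 2 in introns and 2 past the 3′ end. Those past the end were classed as 3′ UTR, 0.937 and 2.29 kb outside the model, where the neighbour Fubp1 lies 0.151 kb away. Nexn thus counts among the genes with promoter peaks of both factors without having them at the same start.

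Xirp1, a Xin-repeat protein of the intercalated disc (chr9:120013755-120023598), had 8 Hoxb13 peaks and no Meis1 peak. Their strengths were 18.4 to 27.4, and 227 genes (1.04%) had as many. They included the promoter at 214 bp upstream (19.0), 2 intronic peaks (27.4 and 20.0), 1 in exon 2 of 3 (22.6) and 3 just past the 3′ end (19.6, 18.4 and 23.2). The last, 21.1, was intergenic, 3.90 kb upstream of the start. The nearest Meis1 summits were 29.7 to 46.0 kb from these peaks.

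Ldb3, Myoz2 and Tcap encode scaffold proteins of the Z-disc. Ldb3, the PDZ-LIM protein also called Cypher or ZASP, which binds alpha-actinin (chr14:34526699-34590314), had the most Hoxb13 peaks of the 10 genes, 16, and only 26 genes (0.119%) had as many. Of these, 11 were in introns, 3 in exons and 2 in promoters, and their strengths lay between 18.0 and 31.4, none in the strongest 10%. Its 6 Meis1 peaks included 1 of 123 (rank 615) in intron 3 of 14, 14.3 kb from the start, with Hoxb13 peaks of 24.3 and 22.0 on either side and the nearer summit 332 bp away. Meis1 peaks of 43.2 and 19.5 were in introns 1 and 8, and 1 of 28.3 lay beyond the 5′ end of the model. The latter was classed as 3′ UTR, 2.06 kb outside the model, where the neighbour Opn4 lies 0.303 kb away. The Meis1 peak that covers the printed promoter was among the weakest of its list, at 15.6 (rank 30261 of 30534), and another of 21.6 lay 667 bp upstream. The Hoxb13 promoter peaks were 25.4, at 215 bp upstream, and 28.8, at 534 bp downstream. A further 7 Hoxb13 peaks and 1 Meis1 peak of 77.5 had summits inside the Ldb3 model but were assigned to 9230112D13Rik, so the model held 23 Hoxb13 peaks in all.

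**Figure D4:**
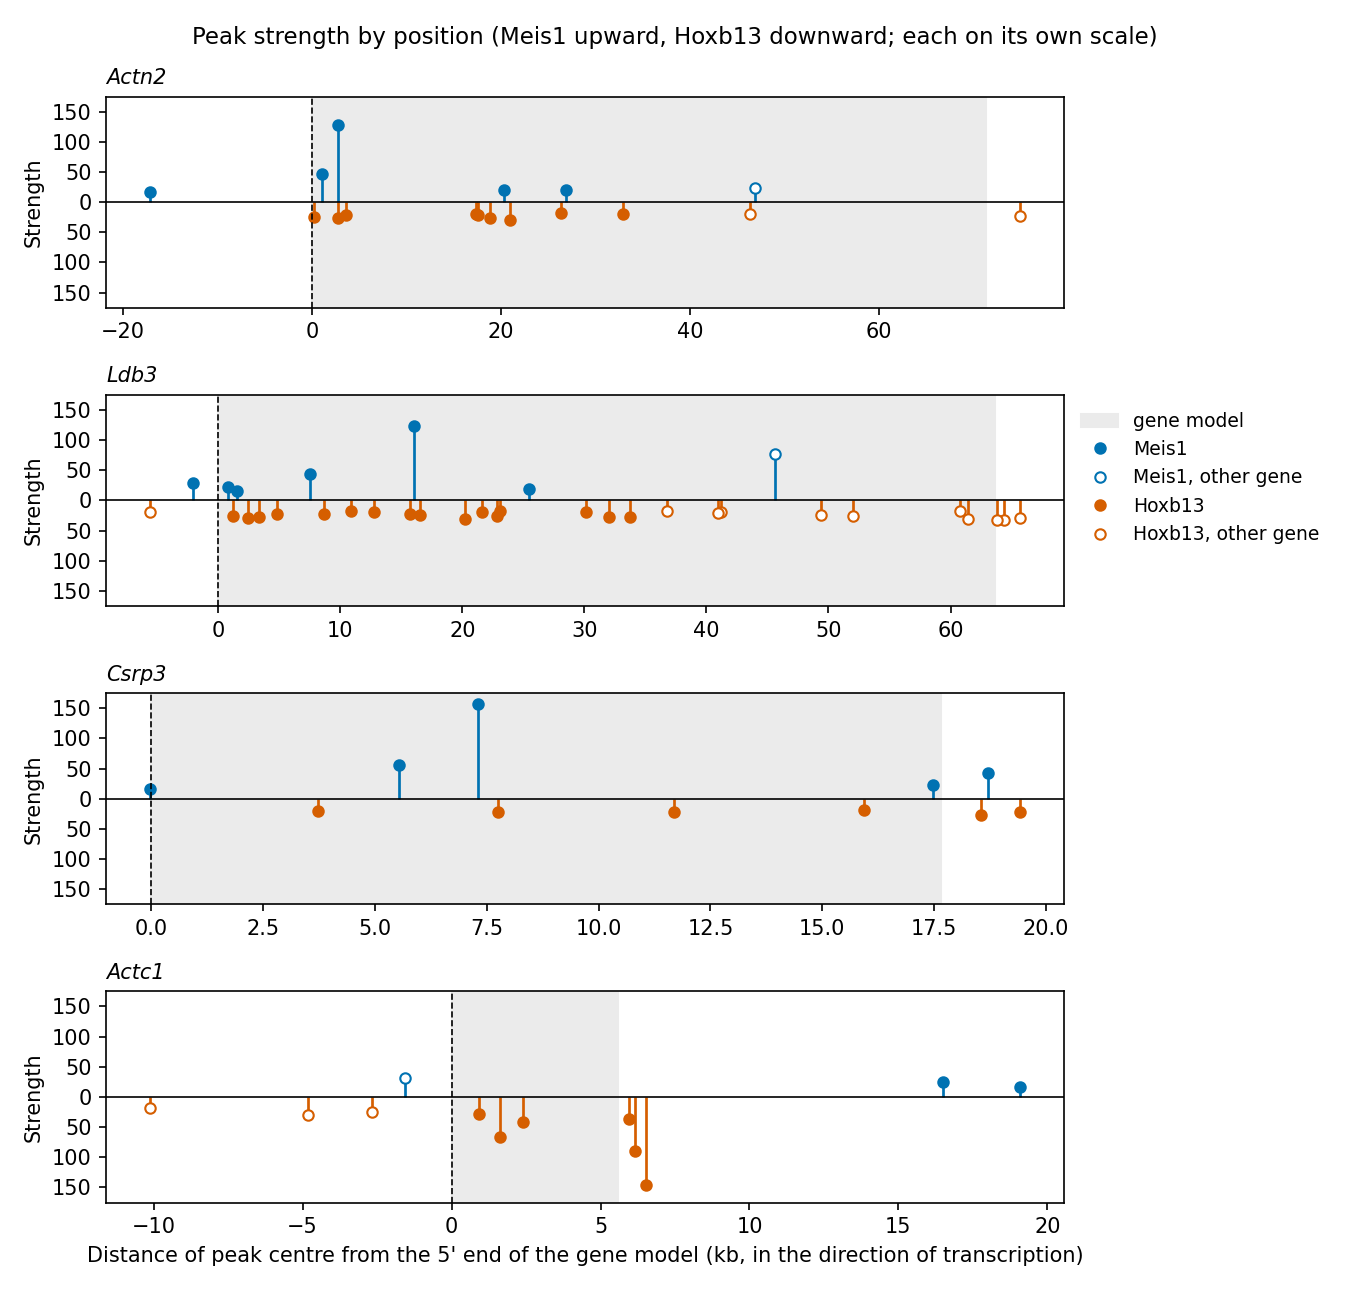
Strength of each peak (vertical axis) against the distance of its centre from the 5′ end of the RefSeq gene model (kb, horizontal axis), for Actn2, Ldb3, Csrp3 and Actc1. Meis1 is drawn upward and Hoxb13 downward over the same range, each in the signal values of its own list, so heights compare only within a factor. Shading is the gene model, and open markers are peaks within 10 kb of it that the authors assigned to another gene. The tallest Meis1 peaks of Actn2, Ldb3 and Csrp3 are 128, 123 and 157. Their tallest assigned Hoxb13 peaks are 30.2, 31.4 and 26.8, with 82.4%, 84.4% and 74.4% of the Hoxb13 list weaker. The tallest Hoxb13 peak at Actc1 is 145.

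Myoz2, calsarcin-1, which tethers calcineurin to the Z-disc (chr3:123006206-123035003), had 6 Meis1 and 11 Hoxb13 peaks, and 84 genes (0.384%) had as many Hoxb13 peaks. Its promoter carried a pair with summits 18 bp apart, Meis1 at 17.4 and Hoxb13 at 18.2, where the Hoxb13 peak contained all 284 bp of the Meis1 peak. A stronger Hoxb13 peak of 36.0 (rank 2283) began 70 bp past the start, across the start from the Mef2 box. In introns of Myoz2 were 6 Hoxb13 peaks, at 17.9 to 26.3. The strongest Meis1 peak, 62.8, was 36.1 kb upstream. Of the peaks assigned to Myoz2, 3 Meis1 and 3 Hoxb13 peaks lay inside the next gene, Synpo2, itself a Z-disc gene, at 57.1 to 95.5 kb from the start. The Meis1 peaks there were 17.5, 17.6 and 40.5, and the Hoxb13 peaks 18.0, 18.4 and 29.4.

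Tcap, telethonin, which caps the end of titin (chr11:98383811-98384953), had the smallest locus, 3.33 kb, with 2 Meis1 and 3 Hoxb13 peaks. Its Hoxb13 promoter peak was 20.7, at 244 bp past the start. The remaining 4 peaks lay in the neighbour Stard3, among them a Meis1 peak of 69.9 (rank 1501) at 9.28 kb upstream. A Meis1 peak of 22.0 and a Hoxb13 peak of 24.0 there shared 9 bp, with summits 331 bp apart.

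Csrp3 and Ankrd1 act in stretch signalling. Csrp3, the muscle LIM protein (chr7:48830398-48848051), had 5 Meis1 and 6 Hoxb13 peaks. Intron 1 of 5 held Meis1 peaks of 157 (rank 367) and 56.2 at 2.84 and 1.01 kb past the assigned start, and the Hoxb13 peak nearest to the stronger one, 21.8, had its summit 447 bp away. The Meis1 promoter peak, the one printed above, was 16.1 (rank 26343) on the outer start site. The Hoxb13 promoter peak, 20.0, was 451 bp upstream of an inner start, 3.76 kb away. Downstream of the gene a Meis1 peak of 42.9 and a Hoxb13 peak of 26.8 overlapped, with summits 173 bp apart. The other Meis1 peak, 21.9, was in the 3′ UTR, and the other Hoxb13 peaks were 18.8 and 21.9 in introns 5 and 2 and 22.7 past the 3′ end.

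Ankrd1, cardiac ankyrin repeat protein (chr19:36111965-36119844), departed from the other genes in having 8 Meis1 peaks and 3 Hoxb13 peaks. Of the Meis1 peaks 5 were intergenic, on the side where the next protein-coding gene, Pcgf5, is 228 kb away, and 4 of these 5 were in the strongest 10%. Their strengths were 187 at 47.5 kb upstream, 129 at 47.7 kb, 81.2 at 49.3 kb, 18.9 at 45.0 kb and 189.8 (rank 229) at 109.6 kb. Those of 187 and 129, at chr19:36167326-36167567 and chr19:36167578-36167796, lay almost end to end but were counted as separate peaks. Inside the gene Meis1 peaks of 45.1 and 35.2 lay in intron 5 and exon 7, and the promoter peak printed above was 21.8. The Hoxb13 peaks were 30.4 at the 3′ end and an overlapping pair of 19.4 and 18.1 in exon 5, and none was at the promoter. The Ankrd1 locus was the widest of the 10, at 126 kb, and as many Meis1 peaks were assigned to 616 genes (2.81%). The intergenic peaks were assigned to Ankrd1 by position, and whether they act on it was not tested.

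Although peaks of both factors were found at 8 genes, few of them overlapped. In all, 4 Meis1 peaks (10.8%, against 5.54% of the Meis1 list) and 4 Hoxb13 peaks (5.97%, against 7.93% of the Hoxb13 list) shared at least 1 bp, as 1 pair each at Actn2, Myoz2, Csrp3 and Tcap. The factors were nonetheless near each other. A Hoxb13 summit lay within 1 kb of 12 of the 37 Meis1 summits (32.4%, against 9.17% of the list), and a Meis1 summit within 1 kb of 17 of the 67 Hoxb13 summits (25.4%, against 14.1%). The median distance from a Meis1 summit to the nearest Hoxb13 summit was 3.06 kb, compared with 61.1 kb over the list. Genes with many peaks of both factors have near summits more often, and this was not allowed for.

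A wider list held 48 further Z-disc, thin filament and related genes, among them cytoplasmic and smooth muscle actins and non-muscle alpha-actinins. In that list 34 (70.8%) had a Meis1 peak, 36 (75.0%) a Hoxb13 peak, 27 both and 5 neither. Promoter peaks were found at 12 (25.0%) for Meis1 and 29 (60.4%) for Hoxb13. Promoter peaks of both were found at 9, namely Pdlim5, Ankrd23, Bag3, Trim55, Trim63, Lmod3, Fhod3, Cryab and Des. They include the muscle ubiquitin ligases Trim55 and Trim63, the leiomodin Lmod3, which promotes actin filament growth, and Des, the intermediate filament protein desmin. The strongest Meis1 peaks were 251 at the LIM gene Fhl2, 237 at Nrap and 196 at Trim55, all above the 189.8 of Ankrd1. The strongest Hoxb13 peak was 85.1 at Actb, lower than the strongest at Actc1. Fhl2 had 41 Hoxb13 peaks, more than Ldb3. Assigned peaks, in or outside the locus, came to 2.27 for Meis1 and 3.21 for Hoxb13 per 100 kb of summed locus length, and the median locus was 67.9 kb.

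The nearest relatives of the 10 genes gave a within-family comparison. Of the other actins, the cytoplasmic Actb had 9 Hoxb13 and 2 Meis1 peaks, Acta2 and Actg1 had 1 Hoxb13 peak each, and Actg2, like Acta1, had none. Of the alpha-actinins, the non-muscle Actn1 and Actn4 had 5 and 8 Hoxb13 peaks with 2 and 3 Meis1 peaks, and the fast skeletal Actn3 had none. Of the PDZ-LIM relatives of Ldb3, Pdlim5 had 10 Meis1 and 8 Hoxb13 peaks, the most Meis1 peaks of the 16 relatives, and Pdlim7 had 2 Hoxb13 peaks alone. Csrp1 had 4 Hoxb13 and 2 Meis1 peaks and Csrp2 a single Hoxb13 peak. Among the calsarcins Myoz1 had 3 Hoxb13 peaks alone and Myoz3 1 Meis1 peak alone. Xirp2 had 8 Meis1 and 2 Hoxb13 peaks, whereas Xirp1 had none and 8. Among relatives of Ankrd1, Ankrd2 had 1 Meis1 peak and Ankrd23 had 2 Meis1 and 5 Hoxb13 peaks. Across the 16 relatives, 9 (56.2%) had a Meis1 peak and 12 (75.0%) a Hoxb13 peak.

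The filaments that the Z-disc anchors were compared through 10 thick and thin filament genes, Myh6, Myh7, Myl2, Myl3, Mybpc3, Tnnt2, Tnni3, Tnnc1, Tpm1 and Ttn. Of these, 8 had a Meis1 peak and all 10 a Hoxb13 peak, and all 10 had a Hoxb13 promoter peak, compared with 8 of the 10 actin and Z-disc genes. Meis1 promoter peaks were at 4 of them (Myh6, Myl3, Tnnt2 and Ttn), compared with 6. Together these filament genes held 186 Hoxb13 and 29 Meis1 peaks, so the excess of Hoxb13 peaks was not particular to the actin and Z-disc genes. Assigned Hoxb13 peaks came to 29.9 per 100 kb of summed locus length, with 93 peaks at Ttn. The strongest Meis1 peak was 540 at Myl2, rank 2 of its list. Differences between these lists of genes were not tested.

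**Figure D5:**
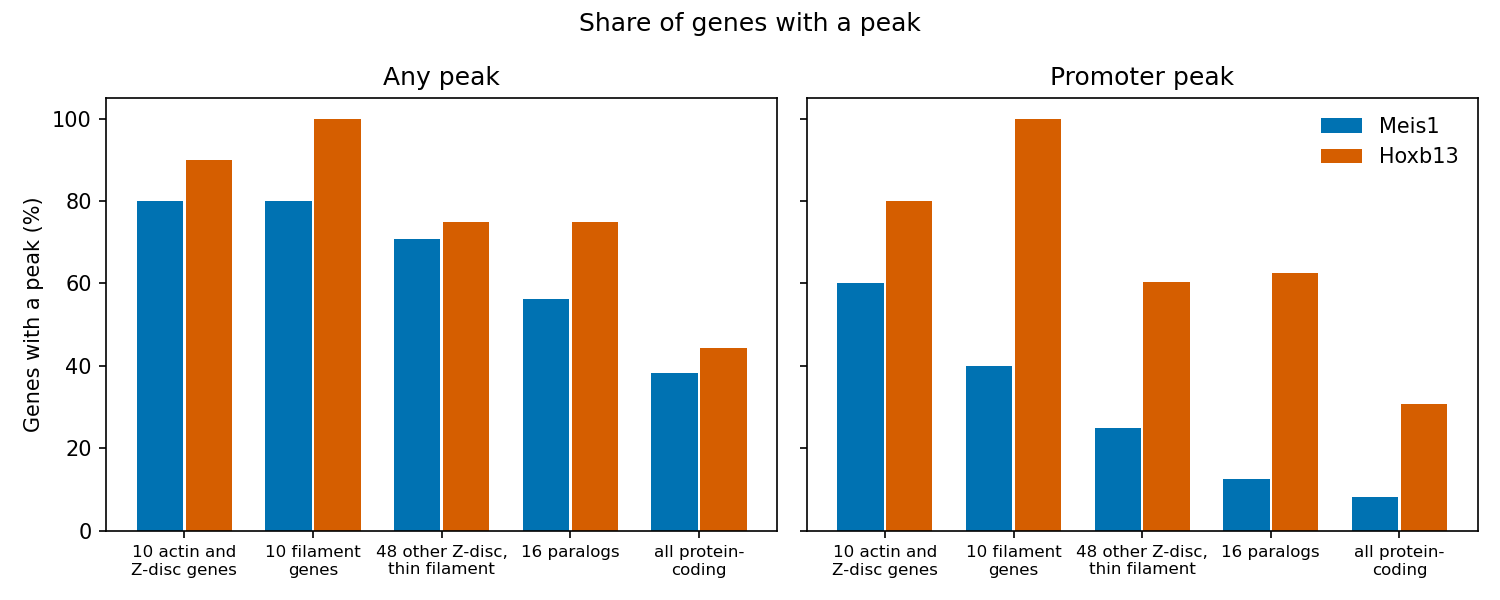
Percentage of genes with at least 1 peak (left) and at least 1 promoter peak (right) of Meis1 (blue) and Hoxb13 (orange), in the 10 actin and Z-disc genes, 3 comparison lists and all protein-coding genes. The 16 relatives are also among the 48 other genes, and every list lies above all protein-coding genes in both panels.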

How the data were processed

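Chromatin from ventricles of 3 hearts at postnatal day 15 was sequenced in 12 libraries, 3 for each antibody and 3 for the input of each. The submitters' processing notes name mm10, deepTools 1.6, ChIPseeker, Picard and Bowtie2 2.2.3. Not given in the sources used here were the peak caller, its threshold and how a factor's libraries were merged. Per the file headers, the authors deposited for each peak a position, a signal value under a column number only (taken as narrowPeak signal from its place), a summit position, a genomic class and 1 assigned gene. Depth per library was unknown.

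Peaks of the 10 genes were selected by symbol with Python 3.11.15 and pandas 2.3.3. Ranks were taken within a list. The background was every protein-coding gene placed on a main chromosome in a RefSeq table of the same build. Peaks shared between lists overlapped by at least 1 bp; the overlap code was tested on simulated intervals. Most Meis1 peaks were 284 bp wide and most Hoxb13 peaks 396 bp. With no value per library, no model was fitted and no p-value is given. Genes named in the comparison lists were those with promoter peaks of both factors, the strongest peaks and the relatives of the 10 genes. The genes and lists were chosen with earlier results of these data known. Of 49 symbols in the wider Z-disc list 48 were matched. The input libraries were not used in the counts made here, which start from the deposited peaks. Alternatives changed the strength cutoff, the distance limit, the gene assignment and the definition of overlap.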

Additional observations from a re-analysis of the deposited data

How the results depend on the processing

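Of 42 values recomputed under other settings, 27 stayed within 1.5-fold of the reported count and 15 did not. With only the strongest 10% of each list, genes with a Hoxb13 peak went from 9 to 2, with both from 8 to 0, with a Meis1 promoter peak from 6 to 1 and with a Hoxb13 promoter peak from 8 to 1. Meis1 peaks then numbered 12 and Hoxb13 peaks 6, and of the other Z-disc and thin filament genes 17 had a Meis1 and 8 a Hoxb13 peak. With the stronger 50%, 5 genes had a Hoxb13 promoter peak and 40 Hoxb13 peaks were left. Within 10 kb of the assigned start there were 18 Meis1 and 37 Hoxb13 peaks. Overlapping pairs went from 4 to 1 at a reciprocal overlap of 50%, to 2 with summits at most 100 bp apart, and to 16 with intervals at most 500 bp apart. These settings keep fewer or more peaks by construction, and the shares of all protein-coding genes under them were not counted. Assigning peaks by coordinates within 10 kb of the gene model left 8 genes with a Meis1 peak and 9 with a Hoxb13 peak. Leaving out a library was not possible, because each list pools its 3 libraries. No paired analysis was possible because the lists used here hold no value per library. The lists hold only peaks past a threshold that is not known here, so a gene without a peak, such as Acta1, may have signal below it.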

Other observations

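Several peaks close to these genes were assigned by the authors to a neighbour, and they are given here as values only. Within 10 kb of Tcap were 4 Meis1 and 7 Hoxb13 peaks, of which 2 and 4 carried the name of Pnmt or Pgap3. A Hoxb13 peak of 40.2 (rank 1589) lay at chr11:98385155-98385550, just past the 3′ end of Tcap, under Pnmt. A Meis1 peak of 88.7 (rank 1047) and a Hoxb13 peak of 40.5 (rank 1548) lay close together in an intron of Pgap3. Upstream of Actc1, a Meis1 peak of 32.2 on a start of C130080G10Rik and a Hoxb13 peak of 25.1 at 581 bp before another of its starts were assigned to this non-coding gene. Inside Actn2, a Meis1 peak of 22.8 and a Hoxb13 peak of 20.1 were assigned to Mtr. Past the 3′ end of Ldb3, 3 Hoxb13 peaks of 29.5, 32.2 and 32.3 were assigned to 9230112D13Rik, while the strongest of the 16 assigned to Ldb3 itself was 31.4.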
